A study of Mus musculus with 6 samples.

Results

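The genes examined were 10 that encode the main apolipoproteins of plasma lipoproteins and the protein that loads the largest of them with lipid: Apoa1, Apoa2, Apoa4, Apoa5, Apob, Apoc1, Apoc2, Apoc3, Apoe and Mttp. They were found by matching the Ensembl identifiers of the count table to these symbols, and each of the 10 symbols matched 1 of the 54532 genes listed. All 10 were among the 14758 genes with enough reads to be tested. RNA was measured by poly(A) RNA-seq in whole livers of 3 knockout mice, LysMcre/+ Cd44flox/flox, and of 3 control littermates, LysM+/+ Cd44flox/flox, on the C57BL/6J/Rj strain. Both groups therefore carried the floxed Cd44 allele and differed in the Cre recombinase, which is driven by the lysozyme 2 (Lyz2, LysM) promoter and acts in macrophages, monocytes and neutrophils. Every mouse received liquid diet with 6% ethanol for 10 days and an ethanol gavage of 5 g/kg on day 11, and was killed 9 hours later. Ethanol-free mice and mice with Cre but without the floxed allele were not analysed here, and age and sex are not given in the sources used here. In the labels these groups are CD44 KO LysM and WT, and they are called knockout and WT livers below.

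Apolipoproteins are the protein coat of the particles that carry fat and cholesterol in blood, and in mice the hepatocyte is the main source of most of them. ApoB is the structural protein of very-low-density lipoprotein (VLDL), and microsomal triglyceride transfer protein, the product of Mttp, adds lipid to it in the endoplasmic reticulum. ApoA-I and apoA-II form high-density lipoprotein (HDL), the apoC proteins set how fast lipoprotein lipase empties the particles, and apoE is the ligand by which hepatocyte receptors take up the remnants. Ethanol is known to change how much fat the liver stores and how much it exports in VLDL.

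Expression of 4 of the 10 genes was higher in knockout livers, that of 1 gene was lower, and 5 did not pass the test. Apoa2, Apoc3, Apoc1 and Mttp rose, by 1.59-fold to 2.22-fold. Apoa4 fell and was 4.36-fold lower in knockout livers. Apob, Apoa1 and Apoa5 had overlapping groups, while Apoe and Apoc2 were higher in each knockout liver than in any WT liver without passing. The count of Apoc2 is uncertain, for a reason given below. These calls used edgeR's quasi-likelihood test at a Benjamini-Hochberg adjusted p of 0.05 over all 14758 genes, and the same test called 24.8% of all genes, 11.9% higher and 12.9% lower in knockout livers. The groups did not overlap for 7 of the 10 genes, against 43.8% of all genes tested, and the median log2 fold change was 0.58 for the 10 genes and -0.01 for all genes.

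The calls depended on how libraries were scaled. TMM scaling (edgeR's usual method, which takes most genes as unchanged) gave 1759 genes higher and 1905 lower, scaling by library totals gave 896 higher and 3699 lower, and scaling to the 12 hepatocyte marker genes gave 550 higher and 4966 lower. Alb, the most abundant of these markers, gave most of their counts. It was itself higher in each knockout liver than in any WT liver, without passing (log2 0.55, adjusted p = 0.0917, edgeR). The median log2 fold change of all genes was -0.26 with library totals and -0.45 with hepatocyte scaling. Of the 10 genes, 2 rose and 1 fell with library totals, and 1 rose and 2 fell with hepatocyte scaling. Apoa2 stayed higher and Apoa4 lower past the threshold under every scaling, filter, tool and omitted liver that was tried.

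**Figure D1:**
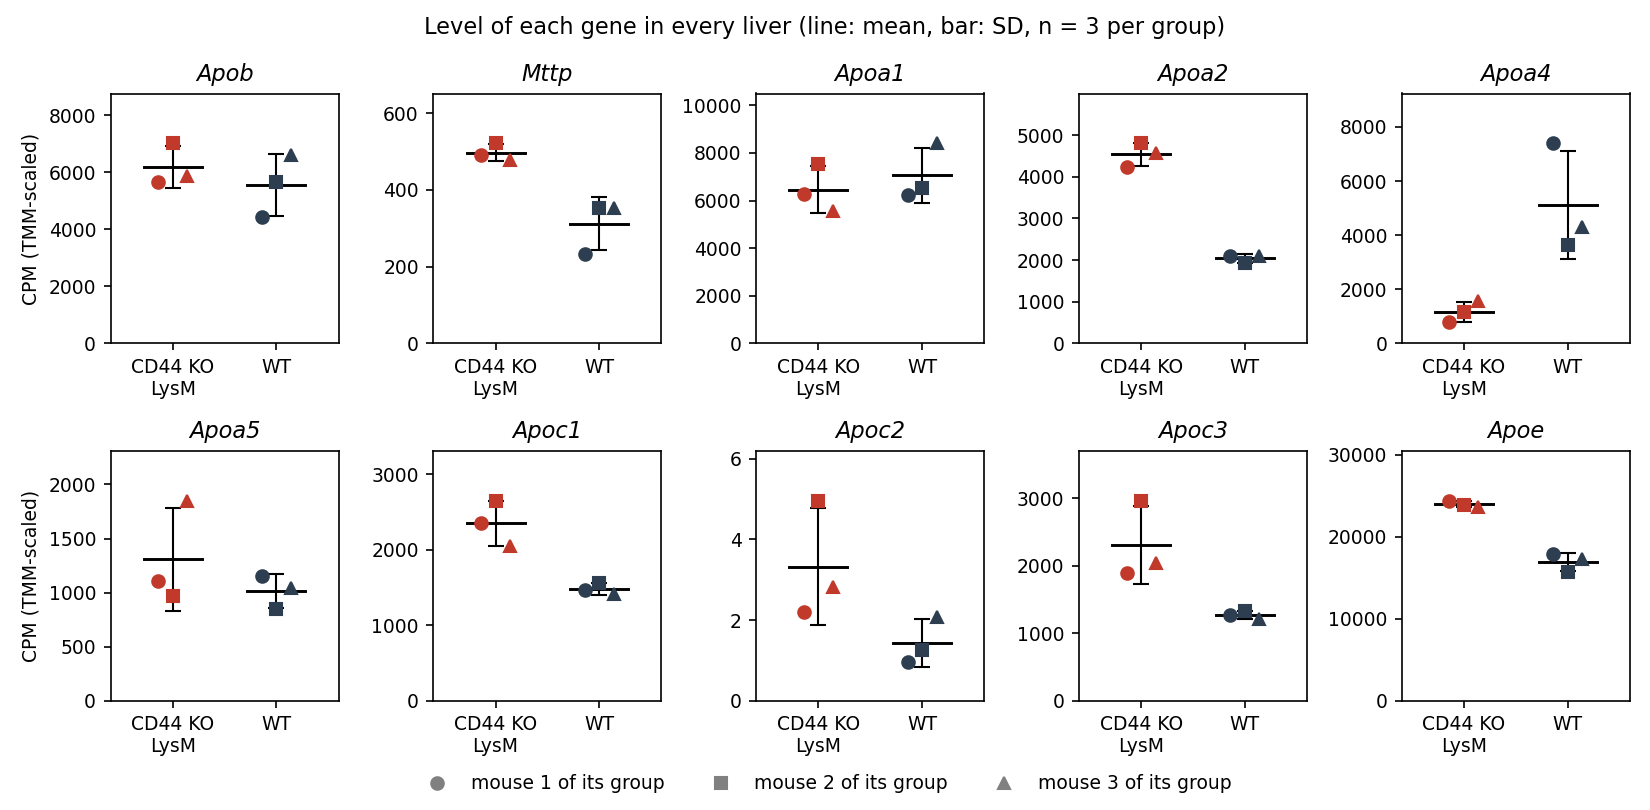
Level of the 10 genes in each liver in CPM (counts scaled by TMM and to a common library size, linear axes from 0, 1 panel a gene), CD44 KO LysM livers left of WT livers, each point being 1 mouse, with the mean as a line and the SD as a bar (n = 3 each). Apoa2 lies between 4242 and 4797 CPM in knockout livers and between 1919 and 2105 CPM in WT livers, while Apoa4 lies between 809 and 1555 CPM in knockout livers and between 3636 and 7388 CPM in WT livers.

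The libraries held 18428224 to 24042917 counts. Cd44, the floxed gene, had 2.11, 1.92 and 3.01 CPM in knockout livers and 32.6, 34.8 and 26.4 CPM in WT livers, a log2 fold change of -3.73 ± 0.20 (SE; adjusted p = 6.61e-05, edgeR). Lyz2, whose locus carries the Cre, had 36.9 to 66.5 CPM in knockout livers and 195 to 235 CPM in WT livers (log2 -2.16, adjusted p = 0.000691). Of the myeloid markers, 8 of 12 Kupffer cell genes fell in knockout livers, with a summed level of 595 to 915 CPM in knockout livers and 1190 to 1349 CPM in WT livers. Of the lipid-associated macrophage markers 8 of 10 fell, with sums of 307 to 525 CPM in knockout livers and 824 to 860 CPM in WT livers. Of the monocyte markers 6 of the 9 tested fell. These 6 include Lyz2, whose locus carries the Cre, so its level is not independent of the genotype. The monocyte sum, most of it from Fn1, which hepatocytes also make, was 1946 to 2473 CPM in knockout livers and 1497 to 2209 CPM in WT livers. In whole liver, fewer cells of a type and less RNA per cell cannot be told apart. Of 12 hepatocyte markers 4 rose (Ttr, Cyp2e1, Serpina1c and Cps1), and their sum was 116763 to 155242 CPM in knockout livers and 93067 to 105262 CPM in WT livers. The part of these shifts in the results that follow was not tested.

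Sequences around transcription starts are shown for 6 genes, the clustered Apoa genes, Apoa2 and the assembly pair. For Apoa4, which fell, and for its neighbours Apoa1 and Apoa5, which did not pass, and for Apoa2, Apob and Mttp, the 300 bases from 250 before to 50 after the RefSeq start are given 5′ to 3′ on the gene's strand, from RefSeq on GRCm38.p6. Capitals mark matches to motifs searched on both strands. The TATA box was searched as TATAAA. The CCAAT box was searched by its own letters. The site of the nuclear receptor HNF4 was searched in the forms CAAAGTCCA and CAAAGTTCA. The element that single nuclear receptors bind was searched as AGGTCA. The core of the cAMP response element was searched as TGACGT. RefSeq windows were found for 8 of the 10 genes. These starts are at 46240844 for Apoa4, 46228630 for Apoa1, 7977677 for Apob and 138143418 for Mttp, inside the GENCODE genes whose coordinates are given below, and at the GENCODE start for Apoa5 and Apoa2.
Apoa4, chr9:46240594-46240893, plus strand: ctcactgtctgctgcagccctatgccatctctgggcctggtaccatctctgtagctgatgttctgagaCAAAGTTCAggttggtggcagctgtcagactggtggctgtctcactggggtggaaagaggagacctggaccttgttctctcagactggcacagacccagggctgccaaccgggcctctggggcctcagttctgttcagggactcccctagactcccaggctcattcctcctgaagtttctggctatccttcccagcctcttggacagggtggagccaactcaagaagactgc
Apoa1, chr9:46228380-46228679, plus strand: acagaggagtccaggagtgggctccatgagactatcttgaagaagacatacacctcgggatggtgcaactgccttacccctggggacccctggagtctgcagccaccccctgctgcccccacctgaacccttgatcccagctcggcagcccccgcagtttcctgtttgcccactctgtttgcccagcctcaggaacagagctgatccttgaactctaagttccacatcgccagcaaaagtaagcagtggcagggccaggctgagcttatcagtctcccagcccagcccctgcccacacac
Apoa5, chr9:46268383-46268682, plus strand: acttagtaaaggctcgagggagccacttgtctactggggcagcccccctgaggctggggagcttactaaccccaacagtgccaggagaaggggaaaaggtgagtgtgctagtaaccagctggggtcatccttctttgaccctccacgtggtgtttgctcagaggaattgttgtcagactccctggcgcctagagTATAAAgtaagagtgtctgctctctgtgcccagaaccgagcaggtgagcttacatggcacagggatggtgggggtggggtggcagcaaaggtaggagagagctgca
Apoa2, chr1:171224804-171225103, plus strand: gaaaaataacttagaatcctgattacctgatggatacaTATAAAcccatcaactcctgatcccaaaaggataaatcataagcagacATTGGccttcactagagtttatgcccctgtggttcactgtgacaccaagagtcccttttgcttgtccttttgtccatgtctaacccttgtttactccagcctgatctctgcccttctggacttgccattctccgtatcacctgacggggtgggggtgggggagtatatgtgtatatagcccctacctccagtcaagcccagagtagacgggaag
Apob, chr12:7977427-7977726, plus strand: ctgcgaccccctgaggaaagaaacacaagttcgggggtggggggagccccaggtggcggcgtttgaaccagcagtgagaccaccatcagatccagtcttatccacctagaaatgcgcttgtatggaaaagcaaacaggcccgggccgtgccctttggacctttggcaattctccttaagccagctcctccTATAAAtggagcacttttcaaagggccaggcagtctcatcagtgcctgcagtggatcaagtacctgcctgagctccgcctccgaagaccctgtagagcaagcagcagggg
Mttp, chr3:138143369-138143668, minus strand: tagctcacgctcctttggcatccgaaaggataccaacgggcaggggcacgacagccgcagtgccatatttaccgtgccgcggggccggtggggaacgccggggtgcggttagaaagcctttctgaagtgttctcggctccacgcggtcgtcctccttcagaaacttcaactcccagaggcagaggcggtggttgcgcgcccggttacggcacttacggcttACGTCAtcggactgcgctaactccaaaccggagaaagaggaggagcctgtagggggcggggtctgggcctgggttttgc

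The Apoa4 window held CAAAGTTCA at 182 to 174 bases before the start, a 9-letter run found in 0.39% of 32851 mouse windows of this length. That form was added to the search after the Apoa4 window had been read. CAAAGTCCA, found in 0.475% of windows, was in none of the 6. TATAAA, found in 13.6% of windows, stood 56 to 51 bases before the start of Apoa5, 60 to 55 before that of Apob and 212 to 207 before that of Apoa2. The Apoa2 window also held CCAAT on the opposite strand, printed as ATTGG, as did 37.4% of windows on either strand. The Mttp window held TGACGT on the opposite strand, printed as ACGTCA 29 to 24 bases before the start, against 7.51% of windows. AGGTCA was in 16.3% of windows and in none of these 6, while the Apoc2 window, not shown, held it at 115 to 110 bases before the start and again within the bases after it. The Apoe window, not shown either, held none of the letters searched. The Apoa1 window held no match to any of these letters. A match is a description of the letters only.

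Particle assembly was represented by Apob and Mttp. Apob (chromosome 12, 7977648 to 8016835 on GRCm38, plus strand) had 5669, 7013 and 5858 CPM in knockout livers and 4422, 5676 and 6596 CPM in WT livers. The groups overlapped, with a log2 fold change of 0.15 ± 0.20 (SE, n = 3 each; adjusted p = 0.626, edgeR) and a 95% interval from -0.31 to 0.61. The value was -0.11 with library totals and -0.29 with hepatocyte scaling, which shift all genes alike. Relative to the median of all genes Apob therefore stood 0.16 higher under each of the 3 scalings, which does not show which scaling is right. Apob passed under none of them.

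Mttp (chromosome 3, 138089854 to 138144968, minus strand) had 491, 521 and 477 CPM in knockout livers and 232, 352 and 353 CPM in WT livers. All 3 knockout livers were above all 3 WT livers, and WT liver 1 stood lowest. The means were 496 ± 22.1 CPM in knockout livers and 312 ± 69.4 CPM in WT livers (SD, n = 3 each), a 1.59-fold rise with a log2 fold change of 0.67 ± 0.18 (SE; adjusted p = 0.0256, edgeR). Leaving out knockout liver 1 or 2 ended the call, with adjusted p of 0.0711 and 0.0502 by edgeR. It was also lost with library totals (log2 0.41, adjusted p = 0.102, edgeR) and with hepatocyte scaling (log2 0.23, adjusted p = 0.362, edgeR). Relative to the median of all genes Mttp stood 0.68 higher under both, a value that such scalings leave nearly unchanged. Of its 6206 exonic bases, Mttp shares 457 with Trmt10a and 132 with Gm43691, both on the opposite strand. Trmt10a had 98, 95 and 115 counts in knockout livers and 164, 103 and 76 counts in WT livers.

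The proteins of HDL gave 1 gene that rose and 1 that did not pass. Apoa1 (chromosome 9, 46228580 to 46230466, plus strand), the structural protein of HDL, had 6278, 7514 and 5558 CPM in knockout livers and 6224, 6539 and 8395 CPM in WT livers. The ranges overlapped, with WT liver 3 the highest of the 6 and a log2 fold change of -0.13 ± 0.20 (SE; adjusted p = 0.680, edgeR; 95% interval -0.58 to 0.33). Without WT liver 3 the sign turned to 0.04, and with hepatocyte scaling Apoa1 passed as lower (log2 -0.58, adjusted p = 0.0232), while relative to the median of all genes it was -0.13 there.

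Apoa2 (chromosome 1, 171225054 to 171226379, plus strand), the second most abundant protein of HDL, had 4242, 4797 and 4562 CPM in knockout livers and 2092, 1919 and 2105 CPM in WT livers. The lowest knockout liver was far above the highest WT liver, and the spread within each group was small. The means were 4534 ± 279 CPM in knockout livers and 2038 ± 104 CPM in WT livers (SD, n = 3 each), a 2.22-fold rise (log2 1.15 ± 0.16, SE; adjusted p = 0.00167, edgeR). Over the alternatives the log2 fold change of Apoa2 ran from 0.71 to 1.20, with adjusted p up to 0.0119.

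Apoa4 and Apoa5 are exchangeable apolipoproteins of triglyceride-rich particles. In mice apoA-IV is made in intestine and liver, and its liver transcript is known to rise with hepatic fat. Apoa4 (chromosome 9, 46240696 to 46243459, plus strand) had 809, 1149 and 1555 CPM in knockout livers and 7388, 3636 and 4300 CPM in WT livers. The highest knockout liver was below the lowest WT liver, and WT liver 1 stood above the other WT livers. The means were 1171 ± 374 CPM in knockout livers and 5108 ± 2002 CPM in WT livers (SD, n = 3 each), and expression fell by 2.13 on the log2 scale (SE 0.33; adjusted p = 0.00365, edgeR). Without WT liver 1 the log2 fold change was -1.75, the smallest fall over the alternatives, and it still passed.

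Apoa4 shares exonic bases with 2 genes on the opposite strand, 634 of its 1815 with Gm47528 and 632 with Gm10680. Gm47528 had 78, 212 and 115 counts in knockout livers and 606, 170 and 277 counts in WT livers, and Gm10680 was listed at 0 in all 6, so their reads were under 1% of those of Apoa4 in each liver. Whether the counting used strand is not given in the sources used here, so reads of Apoa4 and of these partners cannot be told apart in the shared exons. Of 8 enterocyte genes, the markers of the other tissue that makes apoA-IV, Sis and Cdx1 were at 0 in every liver and Fabp2 was the one gene tested. Fabp2, which liver also expresses, had 57.4, 79.5 and 74.2 CPM in knockout livers and 175, 83.2 and 107 CPM in WT livers (adjusted p = 0.0642, edgeR). DESeq2 called Fabp2 lower, as did edgeR with library totals and with hepatocyte scaling, and its part in the Apoa4 result was not tested.

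Apoa5 (chromosome 9, 46268633 to 46271919, plus strand), which promotes lipolysis by lipoprotein lipase, had 1104, 970 and 1849 CPM in knockout livers and 1153, 848 and 1044 CPM in WT livers. The groups overlapped, since knockout liver 3 alone stood above the WT range. Its log2 fold change came to 0.37 ± 0.25 (SE; adjusted p = 0.325, edgeR), with a 95% interval from -0.21 to 0.94. With hepatocyte scaling it was -0.03, and relative to the median of all genes it was 0.42 there.

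**Figure D2:**
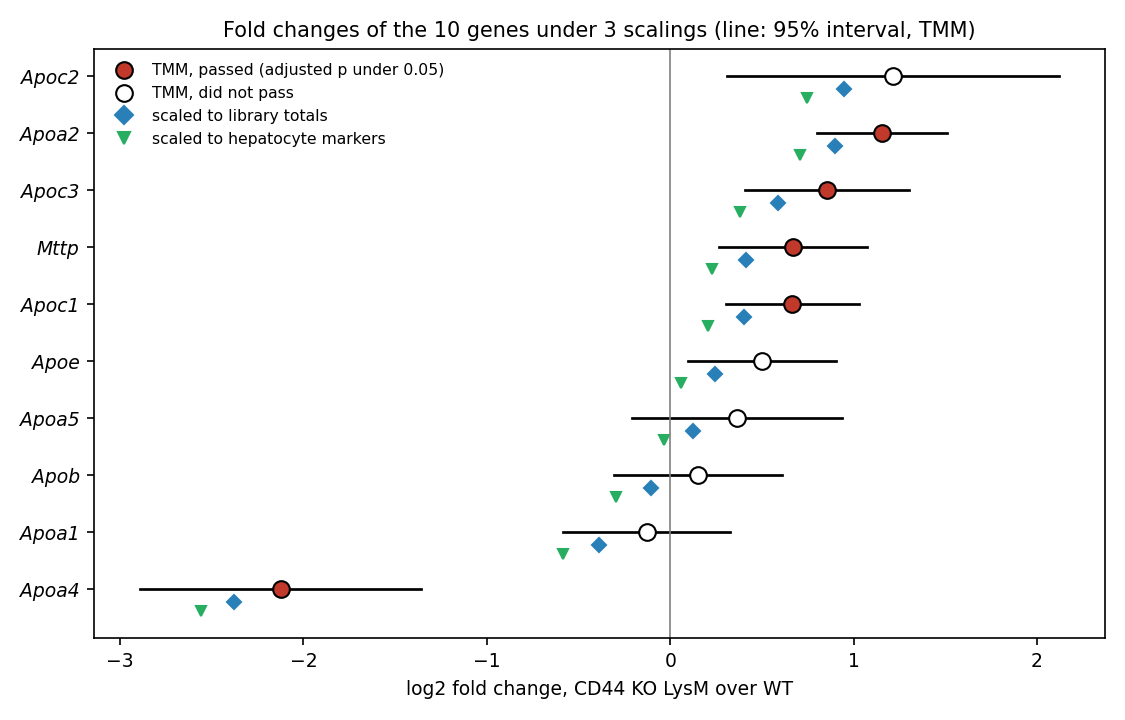
Log2 fold change of each of the 10 genes, knockout over WT livers, with TMM scaling (circles, filled where they passed, with the 95% interval from edgeR, n = 3 each), library totals (diamonds) and hepatocyte marker scaling (triangles). Apoa2 at 1.15, Apoc3 at 0.86, Apoc1 at 0.67 and Mttp at 0.67 passed as higher and Apoa4 at -2.13 as lower, and hepatocyte scaling puts each gene to the left of its TMM value, Apoa5 at -0.03 and Apob at -0.29 among them.

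The apoC proteins are small and move between particles: apoC-II activates lipoprotein lipase, apoC-III inhibits it, and apoC-I slows uptake of particles by receptors. Apoc1 (chromosome 7, 19689481 to 19692660, minus strand) had 2348, 2647 and 2053 CPM in knockout livers and 1468, 1564 and 1408 CPM in WT livers. The groups did not overlap, and the rise was 1.59-fold (log2 0.67 ± 0.16, SE; adjusted p = 0.0175, edgeR). The call was lost without knockout liver 1 (adjusted p = 0.0604), without WT liver 3 (adjusted p = 0.057), with library totals (log2 0.41, adjusted p = 0.0668) and with hepatocyte scaling (log2 0.20, adjusted p = 0.371).

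Apoc3 (chromosome 9, 46232933 to 46235636, minus strand) had 1899, 2960 and 2038 CPM in knockout livers and 1270, 1326 and 1213 CPM in WT livers. Knockout liver 2 was the highest, and the other two knockout livers were still above all WT livers. The rise was 1.81-fold (log2 0.86 ± 0.20, SE; adjusted p = 0.0151, edgeR). It was 0.38 on the log2 scale and did not pass with hepatocyte scaling (adjusted p = 0.122).

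Apoc2 (chromosome 7, 19671579 to 19677941, minus strand) had the fewest reads of the 10, with 46, 103 and 57 counts in knockout livers and 24, 26 and 48 counts in WT livers. Scaled to CPM, the values were 2.21, 4.96 and 2.81 in knockout livers and 0.953, 1.26 and 2.09 in WT livers, so the groups were apart by a narrow gap. With edgeR its log2 fold change came to 1.21 ± 0.40 (SE; adjusted p = 0.0549, edgeR). It passed with DESeq2 (adjusted p = 0.021), with no filter on low counts (adjusted p = 0.0115) and without WT liver 3 (log2 1.61, adjusted p = 0.0425). Of the 813 exonic bases of Apoc2, 646 (79.5%) also belong to Gm44805, a read-through gene on the same strand that had 0 to 2 counts a liver, so the count of Apoc2 is uncertain. The sources used here do not say how reads in shared exons were treated.

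Apoe (chromosome 7, 19696109 to 19699188, minus strand) ranked second of all tested genes by mean CPM. It had 24361, 23846 and 23622 CPM in knockout livers and 17888, 15688 and 17221 CPM in WT livers. The lowest knockout liver was above the highest WT liver, and the knockout livers lay close together. The estimate for Apoe was a log2 fold change of 0.50 ± 0.18 (SE; adjusted p = 0.0708, edgeR), so Apoe did not pass, and the 95% interval ran from 0.10 to 0.90. Its adjusted p was 0.000114 with DESeq2, 0.0387 with limma-voom and 0.0283 with no filter, and its log2 fold change was 0.06 with hepatocyte scaling (adjusted p = 0.819). Apoe is made by macrophages as well as hepatocytes, and the part of either cell type in its level was not tested.

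Per length of exon, the order of the levels describes how the mix of the 10 genes differed. The length is that of all annotated exons of a gene joined, so the order also depends on the annotation. On the scale of CPM per kilobase of exon, Apoe was highest in both groups, at 11199 ± 177 in knockout livers and 7920 ± 528 in WT livers (SD, n = 3 each). The order in knockout livers was Apoe, Apoa2, Apoa1, Apoc1, Apoc3, Apoa4, Apoa5, Apob, Mttp and Apoc2. In WT livers it was Apoe, Apoa1, Apoa2, Apoa4, Apoc1, Apoc3, Apoa5, Apob, Mttp and Apoc2. Apoa2 thus stood above Apoa1 in knockout livers, at 8443 ± 519 and 5219 ± 801 CPM per kilobase, and below it in WT livers, at 3796 ± 194 and 5706 ± 949. The last place of Apoc2 is in doubt, since most of its exonic bases are shared with Gm44805 and its count is uncertain. Apoa4 had 645 ± 206 CPM per kilobase in knockout livers and 2814 ± 1103 in WT livers. Neighbours in the order whose mean ± SD ranges overlapped in knockout livers were Apoc1 and Apoc3, Apoa4 and Apoa5, and Apoa5 and Apob. In WT livers they were Apoa2 and Apoa4, Apoa4 and Apoc1, and Apoa5 and Apob. Both genes of such a pair were measured in the same livers, so the overlap does not show that their levels were alike.

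The 10 genes together took a similar mean share of all counts in both groups. The share was 4.43%, 4.45% and 4.49% in knockout livers and 4.59%, 4.21% and 4.54% in WT livers, or 4.45% ± 0.03 in knockout livers and 4.45% ± 0.20 in WT livers (SD, n = 3 each). On the TMM scale the sum was 47204, 51422 and 47575 CPM in knockout livers and 42140, 37548 and 42638 CPM in WT livers. Without Apoa4, the gene of the 10 that fell, it was 46395, 50273 and 46019 CPM in knockout livers and 34752, 33912 and 38338 CPM in WT livers. The groups were apart on this scale both with Apoa4 and without it.

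Of the 10 genes, 7 lie in 2 clusters. On chromosome 9, Apoa1, Apoc3, Apoa4 and Apoa5 span 43340 bases (46228580 to 46271919), with Apoc3 on the minus strand and the other members on the plus strand. The gaps are 2466 bases between Apoa1 and Apoc3, 5059 between Apoc3 and Apoa4, and 25173 between Apoa4 and Apoa5. In this cluster Apoc3 rose, Apoa4 fell, and Apoa1 and Apoa5 did not pass. The log2 fold changes of Apoc3 and Apoa4, next to each other on opposite strands, were 0.86 and -2.13.

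On chromosome 7, Apoc2, Apoc4, Apoc1 and Apoe all lie on the minus strand within 27610 bases (19671579 to 19699188). Here Apoc1 rose, and Apoe at log2 0.50 and Apoc2 at log2 1.21, with its uncertain count, did not pass. Apoc4, between them and not among the 10, had a log2 fold change of 0.16 and did not pass.

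Among 12 genes that flank the 2 clusters, 3 fell, and the median log2 fold change was -0.28, against -0.01 for all genes. Relb, a subunit of the transcription factor NF-kappaB beyond Clptm1 from the chromosome 7 cluster, had 4.32 ± 1.90 CPM in knockout livers and 14.7 ± 1.10 CPM in WT livers (SD, n = 3 each; log2 -1.77, adjusted p = 0.00485, edgeR). Pafah1b2, a subunit of platelet-activating factor acetylhydrolase beyond Sik3 from the chromosome 9 cluster, had 40.6 ± 2.27 CPM in knockout livers and 56.5 ± 2.08 CPM in WT livers (log2 -0.48, adjusted p = 0.0108). Bud13, a splicing factor next but 1 to Apoa5, had 6.38 ± 1.58 CPM in knockout livers and 9.86 ± 0.44 CPM in WT livers (log2 -0.63, adjusted p = 0.0455). The call of Bud13 was lost without any 1 of knockout livers 1 and 2 or the 3 WT livers (adjusted p up to 0.145) and that of Pafah1b2 without WT liver 2 (adjusted p = 0.0508), where 1 of the 12 genes passed, and with hepatocyte scaling 7 fell. In the main edgeR fit with TMM no flanking gene passed as higher, and 2 were higher at an unadjusted p of 0.05. DESeq2 and limma-voom each called 1, as did edgeR with RLE size factors and with scaling without the 20 most abundant genes.

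**Figure D3:**
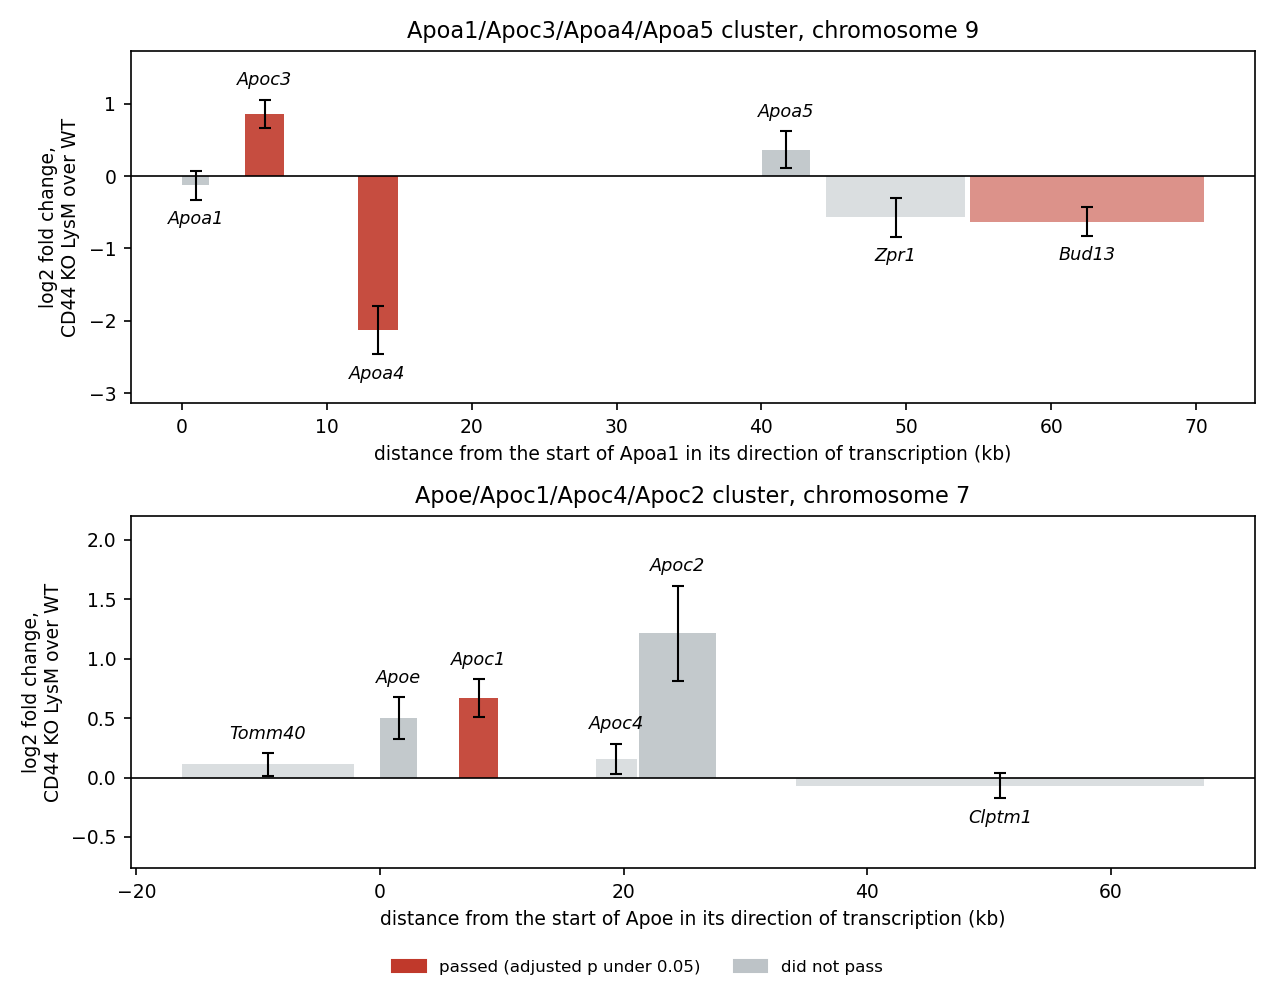
Log2 fold change, knockout over WT livers, of the genes in and beside the 2 apolipoprotein clusters (bar height, with the SE as an error bar, n = 3 each) against distance in kilobases from the start of Apoa1 (above) and of Apoe (below), with bar width showing the extent of the gene. Genes that passed are red, genes outside the 10 are paler, and Apoc3 at 0.86 and Apoa4 at -2.13 are neighbours of opposite sign.

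Ratios within a liver do not depend on how the libraries are scaled, and 7 were compared. The ratio of Apoa4 to Apoa1 counts was 0.129, 0.153 and 0.280 in knockout livers and 1.19, 0.556 and 0.512 in WT livers. The ratio of Apoc3 to Apoa1 was 0.302, 0.394 and 0.367 in knockout livers and 0.204, 0.203 and 0.145 in WT livers. That of Apoa2 to Apoa1 was 0.676, 0.638 and 0.821 in knockout livers and 0.336, 0.293 and 0.251 in WT livers. In each of these the 2 groups were apart, with differences in mean log2 ratio of -1.98, 0.96 and 1.28 in that order.

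The ratio of Mttp to Apob, the loading protein to its cargo carrier, was 0.0867, 0.0742 and 0.0815 in knockout livers and 0.0525, 0.0619 and 0.0535 in WT livers. These groups too were apart, by 0.53 on the log2 scale. In all 4 ratios the first gene had passed in the main fit, and Apoa1 or Apob, the second gene, had not. The ratios reuse the counts behind those calls and are not separate results. For these 4 ratios the two-sided exact permutation p was 0.1, the smallest that 3 livers against 3 allow, and 0.175 adjusted over the 7 ratios, so none can pass a threshold of 0.05. The groups overlapped for Apoa5 to Apoa1 (difference 0.45, exact p = 0.6), Apoc1 to Apoe (0.16, exact p = 0.3) and Apoc2 to Apoe (0.70, exact p = 0.3). The last ratio rests on the uncertain count of Apoc2.

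**Figure D4:**
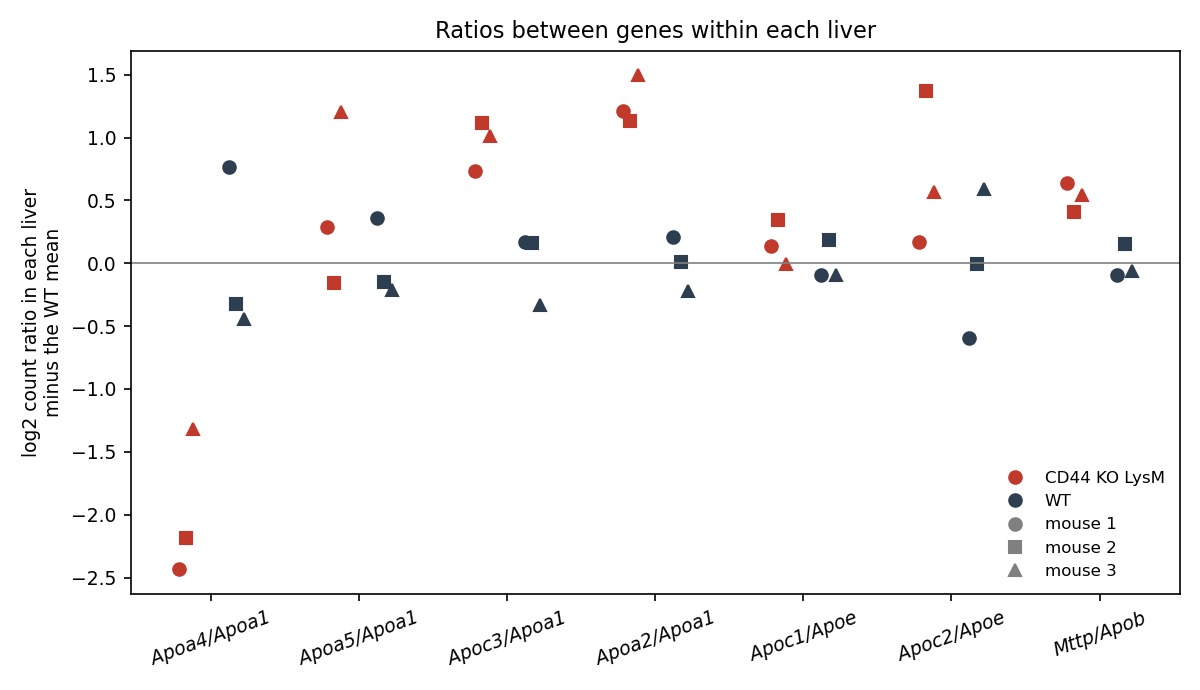
Log2 ratio of the counts of 2 genes in each liver, minus the mean of the WT livers, for 7 pairs, with CD44 KO LysM livers left of WT livers and each point 1 mouse. The groups are apart for Apoa4, Apoc3 and Apoa2 over Apoa1 and for Mttp over Apob, and overlap for the other 3 pairs.

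Genes with the most similar pattern over the 6 livers were sought for each of the 10 among 8388 protein-coding genes with a mean of at least 10 CPM, by the root mean square difference of centred log2 CPM. Nearest to Apoa4 were Marco, a scavenger receptor of macrophages (0.233), Syt12 (0.255) and Ccn2, a matrix-associated growth factor (0.264), while the nearest of the other 9 genes was Apoa1 at 1.12. Nearest to Apoa2 were Abhd18 (0.041), the retinol dehydrogenase Rdh7 (0.0707) and Cyp4v3 (0.0804). Apoc1 and Apoe were each other's nearest among the 10, at 0.16, and Apoc3 lay nearest to Apoc1, at 0.161. Outside the 10, Mindy1 was nearest to Apoc1 (0.034), Gchfr to Apoc3 (0.0832), Acad8 to Apoe (0.0345), Enpp2 to Mttp (0.0376), C4bp to Apob (0.042), Cpeb2 to Apoa1 (0.071), Endog to Apoa5 (0.108) and Acsl1 to Apoc2 (0.167). These distances rest on the same 6 livers and are descriptions, with no test.

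Around the 10 genes, 7 lists of related genes held 114 that could be tested, of which 34 rose and 12 fell. The split was 24 higher and 22 lower with library totals, and 16 higher and 32 lower with hepatocyte scaling. The lists were chosen with results of these livers known, so their counts describe them. With TMM scaling they are set beside the 11.9% of all genes that rose and the 12.9% that fell. Those shares do not apply to the other scalings. Among all genes, library totals gave 896 higher and 3699 lower, and hepatocyte scaling gave 550 higher and 4966 lower. List counts under those scalings, here and for each list, are set beside these numbers.

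Of the genes for VLDL assembly and export, 7 of 22 rose and 2 fell, with a median log2 fold change of 0.27. Ces1d, a lipase that frees stored triglyceride for VLDL, had 492 ± 35.3 CPM in knockout livers and 119 ± 9.35 CPM in WT livers (SD, n = 3 each; log2 2.05, adjusted p = 0.00014, edgeR). Ces1g, a related carboxylesterase, had 333 ± 69.5 CPM in knockout livers and 107 ± 21.4 CPM in WT livers (log2 1.63, adjusted p = 0.0011). Aadac, a lipase of the endoplasmic reticulum, had 326 ± 18.0 CPM in knockout livers and 167 ± 29.8 CPM in WT livers (log2 0.96, adjusted p = 0.00341). The other genes that rose were Dgat2, which makes triglyceride, Sar1b and Mia2, which act in the coat and cargo selection of export vesicles, and A1cf, a cofactor of Apob mRNA editing.

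Apobec1, the deaminase that edits Apob mRNA to give the shorter apoB-48, which mouse liver also makes, had 15.1 ± 2.26 CPM in knockout livers and 40.9 ± 3.46 CPM in WT livers (log2 -1.43, adjusted p = 0.000537, edgeR). It was lower in each knockout liver than in any WT liver, and it fell while its cofactor A1cf rose. Macrophage markers also moved as given above, and which cells the fall of Apobec1 came from was not tested. The other gene of this list that fell was Vmp1, a scramblase of the endoplasmic reticulum. The higher count was 4 without knockout liver 1 or 2, and with library totals or hepatocyte scaling the list gave 3 higher and 6 lower.

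Of 14 genes for HDL formation and remodelling, 7 rose and 1 fell, with a median of 0.58. Pon1, the antioxidant esterase carried on HDL, had 912 ± 119 CPM in knockout livers and 349 ± 8.92 CPM in WT livers (SD, n = 3 each; log2 1.39, adjusted p = 0.000679, edgeR). Lipc, hepatic lipase, had 180 ± 10.3 CPM in knockout livers and 88.7 ± 16.7 CPM in WT livers (log2 1.02, adjusted p = 0.00232). Abcg8, which with Abcg5, with which it shares exonic bases, exports sterols into bile, had 110 ± 22.4 CPM in knockout livers and 30.4 ± 9.70 CPM in WT livers (log2 1.85, adjusted p = 0.0027), and Lipg, endothelial lipase, had 11.1 ± 1.31 CPM in knockout livers and 2.96 ± 1.19 CPM in WT livers (log2 1.90, adjusted p = 0.00285). Abca1, which loads apoA-I with lipid, and Scarb1, the HDL receptor, had log2 fold changes of -0.02 and -0.01 and did not pass. The gene that fell was Abcg1, which is also expressed in macrophages, and it did not pass without WT liver 1. The lower count was 2 without knockout liver 3, 3 with library totals and 5 with hepatocyte scaling, which left 5 higher.

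Of the lipoprotein receptors and uptake genes, 1 of 15 tested rose and 1 fell, with a median of 0.06. Msr1, a scavenger receptor of macrophages, had 16.8 ± 2.10 CPM in knockout livers and 44.4 ± 3.73 CPM in WT livers (SD, n = 3 each; log2 -1.40, adjusted p = 0.000489, edgeR). The lower count was 2 without knockout liver 2 or with library totals and 4 with hepatocyte scaling. The higher count was 0 with hepatocyte scaling.

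Of 9 genes of plasma lipolysis and its control, 3 rose and 2 fell, with a median of 0.34. Lpl, lipoprotein lipase itself, had 47.9 ± 30.5 CPM in knockout livers and 212 ± 23.1 CPM in WT livers (SD, n = 3 each; log2 -2.15, adjusted p = 0.0144, edgeR). Macrophages also express Lpl, their markers moved as given above, and their part in its fall was not tested. Its call was lost without knockout liver 1 (adjusted p = 0.0511) and with no filter (adjusted p = 0.0955). Hspg2, a matrix proteoglycan, had 33.8 ± 6.78 CPM in knockout livers and 53.5 ± 1.20 CPM in WT livers (log2 -0.66, adjusted p = 0.0134).

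Creb3l3, a transcription factor that in mouse liver drives Apoa4, had 497 ± 43.7 CPM in knockout livers and 361 ± 12.2 CPM in WT livers (SD, n = 3 each; log2 0.46, adjusted p = 0.0300, edgeR). Its direction was opposite to that of Apoa4. The call was lost without knockout liver 1 or 3, without WT liver 2 or 3, with mouse number as a block and with library totals (adjusted p between 0.0688 and 0.283), and with hepatocyte scaling (log2 0.03, adjusted p = 0.927). The higher count of this list was 1 without knockout liver 1 or WT liver 2, with the block, with library totals and with hepatocyte scaling. The lower count was 1 without knockout liver 1 or with no filter and 4 with hepatocyte scaling.

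Of 26 regulators of apolipoprotein genes, 12 rose and 1 fell, with a median of 0.44. Mlxipl, the carbohydrate response factor ChREBP, had 192 ± 29.7 CPM in knockout livers and 79.9 ± 10.1 CPM in WT livers (SD, n = 3 each; log2 1.26, adjusted p = 0.00104, edgeR). Nr1h4, the bile acid receptor FXR, had 171 ± 14.4 CPM in knockout livers and 71.4 ± 14.1 CPM in WT livers (log2 1.26, adjusted p = 0.00124). Foxa2, a hepatocyte transcription factor, had 41.0 ± 7.22 CPM in knockout livers and 18.3 ± 3.37 CPM in WT livers (log2 1.16, adjusted p = 0.00304). Srebf1, the factor that drives fatty acid synthesis, had 171 ± 22.9 CPM in knockout livers and 95.7 ± 1.38 CPM in WT livers (log2 0.84, adjusted p = 0.0026), did not pass with hepatocyte scaling (adjusted p = 0.106), and shares exonic bases with Rai1. Hnf4a, the nuclear receptor that binds many apolipoprotein promoters, had a log2 fold change of 0.32 and did not pass (adjusted p = 0.227). The gene that fell was Cebpb, and it did not pass without knockout liver 2 or 3, without WT liver 1 or 3, or with no filter. With hepatocyte scaling 5 regulators rose and 3 fell.

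Of the other apolipoproteins, 4 of 16 tested rose and 2 fell, with a median of 0.19. Apoh, which binds anionic phospholipid, had 2099 ± 250 CPM in knockout livers and 1124 ± 67.5 CPM in WT livers (SD, n = 3 each; log2 0.90, adjusted p = 0.00469, edgeR), and did not pass with hepatocyte scaling (adjusted p = 0.0599). Apol7a, a member of the apolipoprotein L family with near relatives in the mouse genome, had 85.6 ± 11.8 CPM in knockout livers and 28.7 ± 4.96 CPM in WT livers (log2 1.57, adjusted p = 0.000577). Pltp, which transfers phospholipid between particles, had 24.6 ± 3.79 CPM in knockout livers and 46.7 ± 6.13 CPM in WT livers (log2 -0.93, adjusted p = 0.00344). Apobr, a receptor for apoB-48 on macrophages, had 3.03 ± 1.29 CPM in knockout livers and 7.79 ± 1.35 CPM in WT livers (log2 -1.36, adjusted p = 0.0123), and did not pass without knockout liver 1 (adjusted p = 0.0519). Pltp shares exonic bases with Ctsa, and Apobr with Cln3 and Il27, so their counts may be split. The higher count was 2 without knockout liver 1, WT liver 2 or WT liver 3, with the block, with no filter and with hepatocyte scaling, and the lower count was 1 without knockout liver 1.

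**Figure D5:**
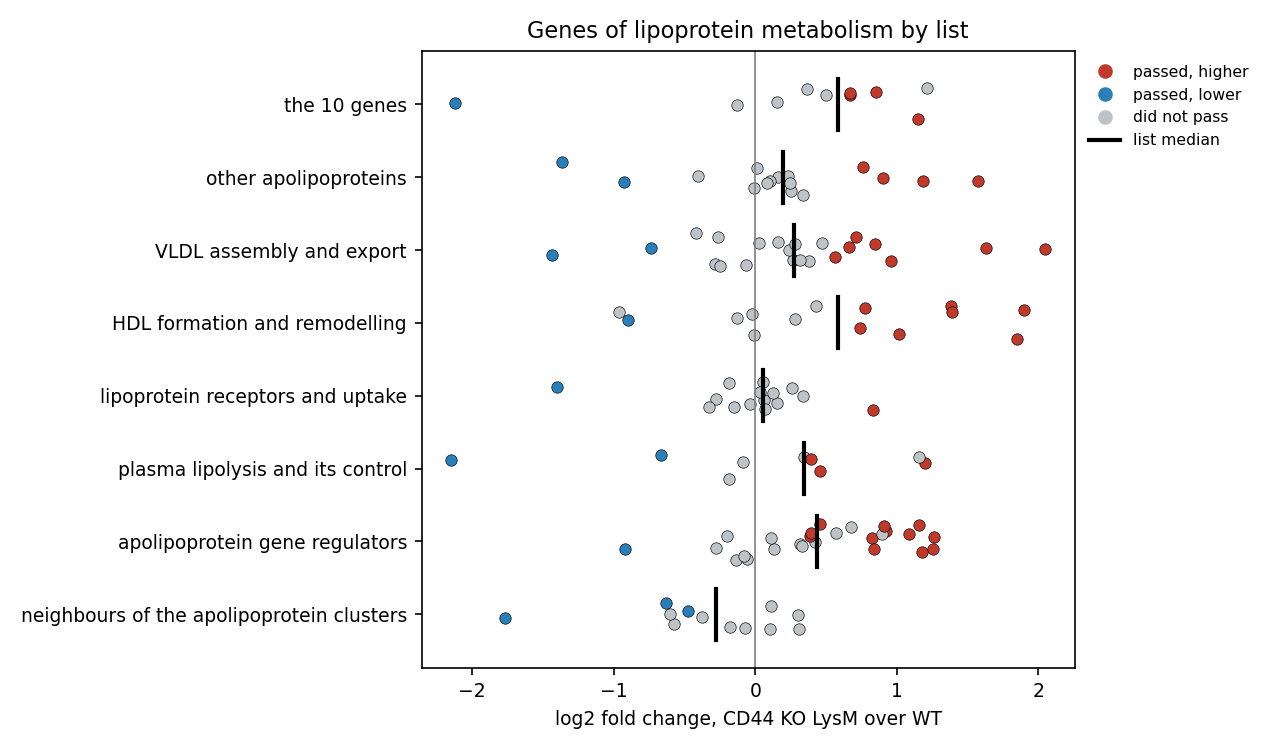
Log2 fold change, knockout over WT livers, of the 10 genes and of each tested gene in the 7 lists, with the list's median as a black line, genes that passed as higher in red and as lower in blue, and vertical scatter that carries no value. The medians of the 7 lists lie between -0.28 for the genes that flank the clusters and 0.58 for HDL formation and remodelling.

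The remaining marker lists stood for other cells of the liver. Of 10 sinusoidal endothelial markers none passed with edgeR, 2 were lower at an unadjusted p of 0.05, and DESeq2 and limma-voom each called 1 lower. Their sum was 247 to 315 CPM in knockout livers and 293 to 319 CPM in WT livers. Of 9 stellate cell markers 4 fell, Col1a1, Col3a1 and Pdgfrb among them, and 1 rose, with sums of 668 to 720 CPM in knockout livers and 714 to 824 CPM in WT livers. Of the 6 cholangiocyte markers tested none passed with edgeR or DESeq2 or limma-voom, 1 was lower at an unadjusted p of 0.05, and the sums were 66.7 to 74.4 CPM in knockout livers and 72.8 to 74.8 CPM in WT livers. Alb, the most abundant hepatocyte marker, took 7.76%, 8.34% and 6.82% of counts in knockout livers and 5.74%, 6.59% and 6.41% in WT livers, and did not pass (adjusted p = 0.0917, edgeR).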

How the data were processed

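Poly(A) RNA-seq libraries of 6 livers were analysed from the gene-level counts the authors deposited, which are whole numbers and not normalised. The submitters' processing notes list featureCounts 1.5.0-p3, StringTie 1.3.3b and HISAT2 2.0.5 and the build GRCm38.p6, and give no strand setting. Of 54532 identifiers, 54495 matched GENCODE annotation of GRCm38, from which symbols, coordinates and exonic lengths were taken.

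Genes were kept by filterByExpr (14758 kept), scaled by TMM and tested with edgeR 4.0.16 (robust quasi-likelihood F-test, 3 against 3, no covariate), with Benjamini-Hochberg adjustment over all 14758. CPM were computed from TMM-scaled library sizes. The SE is the log2 fold change over the square root of F, and intervals are 95%. Ratios were tested by exact permutation.

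The alternatives were size factors of the RLE kind, library totals, scaling to 12 hepatocyte markers, scaling without the 20 most abundant genes, DESeq2 1.42.0, limma-voom (limma 3.58.1), no filter, at least 50 counts in 3 libraries, mouse number as a block, and leaving out each liver. Adding the counts of overlapping genes to Apoa4 and Apoc2 was chosen after seeing the data. The test was also run on simulated counts with known changes. The 10 genes, the 7 related lists and the 8 marker lists were chosen with earlier results of these data known. Named genes were the 10, Cd44, Lyz2, up to 4 that passed by smallest p from each related list, up to 3 from each marker list, and the 3 nearest patterns of each of the 10; some genes that this rule names are not reported here. The other genes named, such as Dgat2, Vmp1, Abca1, Scarb1, Hnf4a, Abcg1 and Cebpb, were named after their values were seen.

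Counts of any 2 livers of a group differed beyond sampling noise (chi-square per degree of freedom at least 24.5). The labels name separate mice, so p-values measure the spread between these mice. Mice of the 2 groups share numbers in the labels, which give no pairing, and the deviations of same-numbered livers correlated at -0.03, 0.04 and -0.02, so the numbers were not treated as pairs. The library names carry other numbers. Mouse 1 was Etoh_LysM_02 among knockout livers and Etoh_WT_01 among WT livers.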

Additional observations from a re-analysis of the deposited data

How the results depend on the processing

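With library totals, 896 genes passed as higher and 3699 as lower, and with hepatocyte marker scaling 550 and 4966. Leaving out each liver gave 1088 to 1593 higher and 1173 to 1846 lower (1106 and 1173 without knockout liver 1, 1088 and 1184 without WT liver 2). Of the 10 genes, 2 passed as higher with library totals and 1 with hepatocyte scaling, 2 to 4 when a liver was left out (2 without knockout liver 1), and 6 with DESeq2 or no filter. With hepatocyte scaling 2 passed as lower. Of the 114 related genes, library totals gave 24 higher and 22 lower, and hepatocyte scaling 16 and 32. Direction turned for Apoa1 without WT liver 3 (0.0388, over omitted livers -0.25 to 0.04), for Apoa5 with hepatocyte scaling (-0.0341) and for Apob with library totals (-0.11) and hepatocyte scaling (-0.29). The 2 scalings move all genes nearly alike, so values relative to the median of all genes hardly change under them. Those of Apoa5 (0.42) and Apob (0.16, 0.16) kept their sign, which does not show which scaling is right. For Apoa1 the cause was not tested. A tally was made for 50 of the named genes, the 10 and those picked by smallest p from the related and marker lists. Of its 751 alternatives, 704 kept direction and side of the threshold, 36 lost the call, 7 gained it and 4 turned sign. Genes picked because they passed tend to keep their calls, so the tally does not describe the 10 genes alone. Of these, Apoc1 and Mttp each lost the call under 4 of 15 alternatives and Apoc3 under 1, while Apoa2 and Apoa4 kept theirs.

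Mouse number as a replicate block gave 1468 genes higher and 1680 lower, 4 and 1 of the 10 genes, and 30 and 12 of the related genes; the labels share only a number. As pairs, the ratios Apoa4 to Apoa1, Apoc3 to Apoa1, Apoa2 to Apoa1 and Mttp to Apob had an exact sign-flip p of 0.25, the smallest 3 pairs allow. With 3 livers a group, and 24 to 103 counts for Apoc2, smaller differences could be missed.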
